A study of Homo sapiens with 4 samples.

Results

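In all, 10 genes were chosen by name as adhesion and homing receptors of myeloma: the chemokine receptors CXCR4 and CCR10, the integrin subunits ITGA4, ITGB1, ITGB7, ITGAL, ITGB2 and ITGA6, the hyaluronan receptor CD44, and SELPLG, the P-selectin ligand PSGL-1. Of these 10 genes, 9 had a value among the 15201 genes of the series, and ITGA6 is not analysed here. The series holds 4 RNA sequencing libraries, all from the human myeloma cell line ARP-1. There were 2 libraries of ARP-1 cells with carfilzomib resistance (CfzR, replicates 1 and 2) and 2 of wild-type ARP-1 cells (WT, replicates 1 and 2). Carfilzomib is an irreversible inhibitor of the proteasome used against myeloma. How the resistant cells were selected, whether they were 1 clone, and whether the drug was present at harvest are not stated in the labels. Nothing in the labels ties the replicates to separate cultures, so every p-value here reflects the spread between libraries, possibly a technical one.

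Plasma cells and myeloma cells find and hold their place in the bone marrow through these receptors. CXCR4 senses the chemokine CXCL12 made by marrow stroma, and signalling through it switches integrins into their binding state. An integrin works as a dimer of an alpha and a beta subunit: ITGA4 with ITGB1 binds VCAM1 and fibronectin, ITGA4 with ITGB7 binds MADCAM1, and ITGAL with ITGB2 binds the ICAMs. SELPLG carries the sugars by which cells roll on selectins, and CD44 binds hyaluronan in the matrix. CCR10 responds to CCL27 and CCL28 and is a receptor of IgA plasma cells and skin-homing lymphocytes.

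Expression was given as FPKM (fragments per kilobase of transcript, relative to the size of the library), so levels can be set side by side between genes. The deposited values hold no counts, so sequencing depth and counting error are unknown. The median FPKM lay between 7.50 and 7.75 in all 4 libraries, while the summed FPKM was 673265 and 877849 in CfzR replicates 1 and 2, against 918617 and 955284 in WT, lowest in CfzR replicate 1. Of 10 plasma cell markers, 9 had a value, and their summed FPKM was 6134 to 6700 in CfzR and 5915 to 5990 in WT. JCHAIN, the joining chain of secreted antibodies, carried most of that sum, and without it the order was the opposite, with 2098 and 2295 in CfzR against 2302 and 2497 in WT. Of the 9 markers, 3 were higher and 2 lower in CfzR without overlap, and none passed the threshold used below. Of all 13411 genes tested, 22.1% were higher and 22.6% lower without overlap. For other cell types, 0 of 10 T and NK cell markers had a value, 1 of 10 monocyte and macrophage markers (CD68), 1 of 10 stromal and endothelial markers (PDGFRB) and 3 of 8 epithelial markers. CD68 had 2.10 and 1.09 FPKM in CfzR, against 0.681 and 0.848 FPKM in WT, and PDGFRB had 6.01 and 4.75 FPKM in CfzR, against 4.01 and 3.56 FPKM in WT, both without overlap. The summed epithelial FPKM, mostly MUC1, was 8.31 and 16.7 in CfzR and 21.96 and 22.6 in WT, again without overlap. None of these 5 genes passed the threshold, and their part in the results below was not tested. CfzR replicate 1 differed from CfzR replicate 2 by transcript length: across 12896 genes, which are not independent replicates, their difference had a Spearman correlation of 0.466 with length, against 0.146 for the WT libraries.

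The promoters of 3 genes are printed because they belong to the member with the smallest p-value (CXCR4), the member with the highest level (ITGB7) and the member with the largest positive difference (ITGA4). Each run holds the 250 bases before a transcription start from RefSeq (GRCh38.p14), read 5′ to 3′ on the gene's strand. These starts differ from the GENCODE gene bounds given below, by which part of each printed window lies inside its gene. The ITGA4 window runs from 181457136 to 181457385, while the GENCODE gene begins at 181457202. RefSeq gave 3 windows for CXCR4, so the printed window is not its only one. Capitals mark literal matches, on either strand, to any of 5 motifs. The core of the MAF recognition element was searched as TGCTGA. The core of the site of NRF1 (here nuclear respiratory factor 1), a factor known to act on CXCR4, was searched as CATGCGC. The letters of the GC box, bound by Sp1, were GGGCGG. The core of the RUNX site was searched as TGTGGT, and the TATA box, which positions the start of many genes, as TATAAA.
CXCR4, chr2:136118150-136118399, minus strand: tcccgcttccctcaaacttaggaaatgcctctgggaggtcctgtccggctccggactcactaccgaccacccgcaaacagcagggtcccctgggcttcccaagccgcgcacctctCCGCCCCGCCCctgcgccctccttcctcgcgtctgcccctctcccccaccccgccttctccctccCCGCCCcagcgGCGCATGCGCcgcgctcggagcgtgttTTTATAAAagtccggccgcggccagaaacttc
ITGB7, chr12:53207252-53207501, minus strand: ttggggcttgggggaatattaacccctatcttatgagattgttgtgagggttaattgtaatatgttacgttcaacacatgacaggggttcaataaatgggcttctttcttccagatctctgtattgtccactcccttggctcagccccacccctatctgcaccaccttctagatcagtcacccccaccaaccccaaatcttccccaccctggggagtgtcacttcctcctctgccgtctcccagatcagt
ITGA4, chr2:181457136-181457385, plus strand: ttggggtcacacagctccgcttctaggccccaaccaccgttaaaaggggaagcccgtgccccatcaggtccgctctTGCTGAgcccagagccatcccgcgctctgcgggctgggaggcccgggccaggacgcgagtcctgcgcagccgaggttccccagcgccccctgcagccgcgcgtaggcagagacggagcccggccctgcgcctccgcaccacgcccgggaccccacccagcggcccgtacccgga

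The CXCR4 window held 2 overlapping NRF1 matches on opposite strands, from 59 to 50 bases before the start, 3 GC boxes of which 2 overlap by 1 base, and 2 TATA matches on opposite strands that overlap between 32 and 25 bases before the start. The NRF1 pair and the TATA pair of CXCR4 each lie in 1 stretch that reads the same on both strands, so 1 stretch gave 2 matches. The ITGA4 window held 1 MAF core, which falls inside the gene by the GENCODE bounds, and the ITGB7 window held none of the 5 motifs. Windows of ITGB1 and CD44, the other members matched in RefSeq, held 3 and 2 GC boxes, and that of CD44 also 1 MAF core. By the GENCODE bounds the windows of ITGB1 and CD44 lie wholly inside their genes. RefSeq gave 2 windows for ITGB1, so the window used is not its only one. Over 35114 windows of the same length, a match to the MAF core was found in 14.02%, to the NRF1 core in 3.77%, to the GC box in 42.6%, to the RUNX core in 10.98% and to TATAAA in 10.7%. The GC share was 68.0% for CXCR4, 72.8% for ITGA4 and 49.6% for ITGB7, against a median of 58.0%. These matches describe the letters of the windows and not binding.

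ITGB7 had the highest level of the receptors in both kinds of cells, and CXCR4 had the largest log2 difference between them. ITGB7 stood between 1001 and 1230.4 FPKM over the 4 libraries. The mean level of CXCR4 was 2.07-fold lower in CfzR and that of SELPLG 1.56-fold lower, while that of ITGA4 was 1.41-fold and that of ITGAL 1.34-fold higher. None of these differences passed the threshold of an adjusted p under 0.05 over all 13411 genes tested (limma on log2(FPKM + 1), Benjamini-Hochberg). ITGB2, with a mean of 0.502 FPKM over the 4 libraries, was under the filter of 1 FPKM, which left 8 members tested. Of these, 0 passed, where 47 of all genes tested did (0.350%). With 2 libraries a group, changes as large as those of the members can be missed. A count of 0, here or in the lists below, thus does not show equal levels. At an unadjusted p under 0.05 there were 2, CXCR4 and SELPLG, both lower in CfzR, against 11.1% of all genes tested. In ITGA4 and ITGAL both CfzR libraries lay above both WT libraries, as in 22.1% of all genes tested, and in CXCR4, SELPLG, CD44 and ITGB7 both lay below, as in 22.6%. The groups overlapped for CCR10 and ITGB1. The median log2 fold change of the 8 members was -0.09, against -0.02 over all genes tested. In bulk RNA, fewer cells that express a gene and less of its RNA per cell cannot be told apart.

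**Figure D1:**
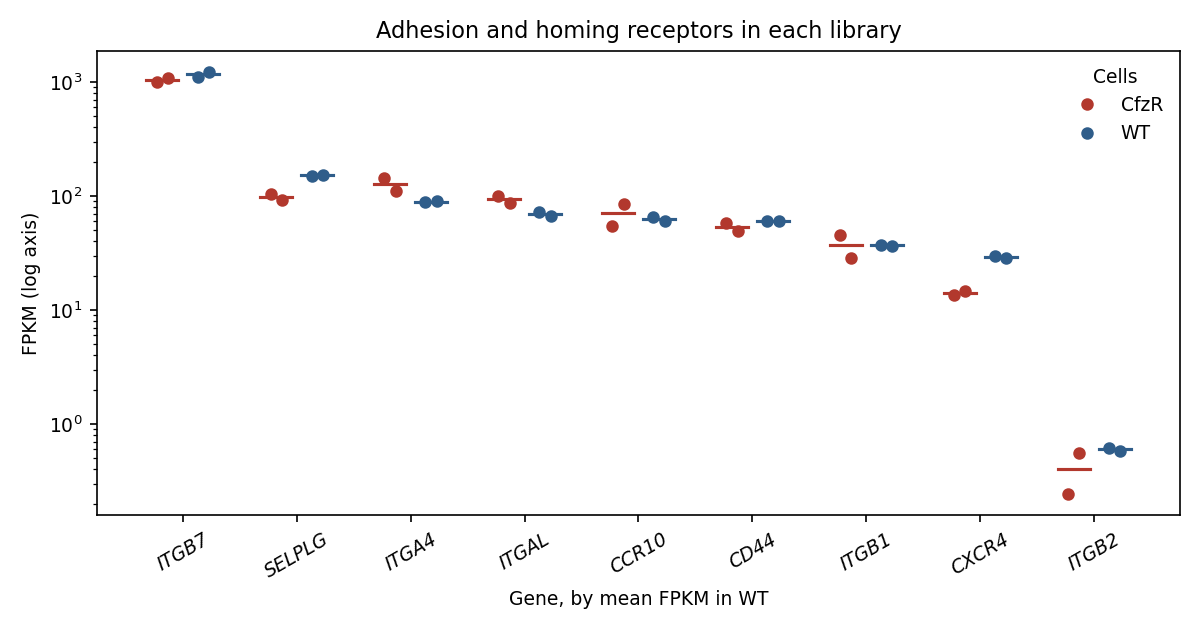
FPKM (log axis) of the 9 receptors with a value, ordered by their mean in WT, with points for the libraries of CfzR (left of each pair) and WT (right) and bars for group means. ITGB7 lies between 1001 and 1230.4 FPKM, ITGB2 below 1 FPKM, and the CfzR points of CXCR4 (13.5 and 14.6) below the WT points (29.8 and 28.5).

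The order of levels in CfzR was ITGB7, ITGA4, SELPLG, ITGAL, CCR10, CD44, ITGB1, CXCR4 and ITGB2. Of the neighbours in that order, the libraries of SELPLG and ITGAL overlapped, as did those of CCR10 and CD44. In WT the order was ITGB7, SELPLG, ITGA4, ITGAL, CCR10, CD44, ITGB1, CXCR4 and ITGB2, and of the neighbours only CCR10 and CD44 overlapped. ITGA4 and SELPLG thus stood in opposite order in the 2 kinds of cells. Mean levels in CfzR spanned 1048 ± 66.7 FPKM for ITGB7 to 0.401 ± 0.224 FPKM for ITGB2, and in WT 1167 ± 89.4 to 0.603 ± 0.0251 FPKM (SD, n = 2 each).

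CXCR4 (ENSG00000121966; GENCODE release 29, GRCh38, chromosome 2, 136114349 to 136118165, minus strand) had 13.5 and 14.6 FPKM in CfzR replicates 1 and 2, against 29.8 and 28.5 FPKM in WT replicates 1 and 2. The libraries of each group lay close together and the groups did not overlap. The mean in CfzR was 14.1 ± 0.787 FPKM and in WT 29.2 ± 0.874 FPKM (SD, n = 2 each). The log2 fold change was -1.0002 (SE 0.19, 95% interval -1.44 to -0.56), with an unadjusted p = 0.00102 and an adjusted p = 0.117 by limma. By p-value CXCR4 ranked 117 of 13411 genes. Among the genes of each library by level, it ranked 5788 and 5547 in CfzR and 3485 and 3722 in WT. Its fold change was -0.998 after correction for transcript length and GC share, and ran from -1.05 to -0.95 with each library left out in turn.

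CCR10 (ENSG00000184451; chromosome 17, 42678889 to 42683917, minus strand) had 54.8 and 86.1 FPKM in CfzR, against 65.9 and 59.9 FPKM in WT. The CfzR libraries lay on either side of the WT libraries. The log2 fold change was 0.13 (SE 0.26, interval -0.49 to 0.74, adjusted p = 0.860 by limma), and leaving out CfzR replicate 2 gave -0.19, leaving out CfzR replicate 1 gave 0.45. CCR10 overlaps the antisense gene ENSG00000267042 over 2058 bases and CNTNAP1, on the opposite strand, over 1305 bases. ENSG00000267042 had 1.00 and 9.83 FPKM in CfzR and 4.40 and 9.74 FPKM in WT. ENSG00000267765, annotated on the same strand as CCR10 and overlapping it over 731 bases, had no value. The strandedness of counting is not known, so reads of CCR10 and of these genes cannot be told apart and the CCR10 level is uncertain. ITGB1, ITGAL, CD44 and SELPLG also overlap annotated genes, mostly on the opposite strand. None of those genes had a value, so their part in the levels is not known.

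ITGB7 (ENSG00000139626; chromosome 12, 53191318 to 53207307, minus strand), the beta subunit of the gut-homing integrin and of the E-cadherin receptor, had 1001 and 1095 FPKM in CfzR, against 1104 and 1230.4 FPKM in WT. It ranked 110 and 132 of 15201 genes by level in CfzR, and 137 and 135 in WT. The highest CfzR library lay just below the lowest WT library. The log2 fold change was -0.15 (SE 0.31, interval -0.88 to 0.57, adjusted p = 0.855 by limma), and under quantile normalization it turned to 0.19. ZNF740, which overlaps ITGB7 over 3824 bases on the opposite strand, stood between 11.7 and 12.5 FPKM in the 4 libraries.

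ITGB1 (ENSG00000150093; chromosome 10, 32900319 to 33005792, minus strand), the beta subunit shared by many matrix-binding integrins, had 45.5 and 28.7 FPKM in CfzR, against 37.1 and 36.6 FPKM in WT. The WT libraries fell between the CfzR libraries, and the group means were close, with 37.1 ± 11.9 FPKM in CfzR and 36.8 ± 0.405 FPKM in WT (SD, n = 2 each). The log2 fold change was -0.02 (SE 0.25, adjusted p = 0.977 by limma), 0.09 under quantile normalization, -0.35 without CfzR replicate 1 and 0.30 without CfzR replicate 2. Its 95% interval, -0.62 to 0.57, allows a change in either direction. ITGB2 (ENSG00000160255; chromosome 21, 44885953 to 44931989, minus strand), the common beta subunit of leukocyte integrins, had 0.242 and 0.560 FPKM in CfzR, against 0.620 and 0.585 FPKM in WT. In the fit without the filter its log2 fold change was -0.20 (SE 0.24, adjusted p = 0.755 by limma). ENSG00000273027, annotated within an intron of ITGB2 on the same strand and overlapping it over 460 bases, had 3.67 and 5.40 FPKM in CfzR and 4.46 and 2.87 FPKM in WT, more than ITGB2 itself. How reads were shared between them is not known, so the ITGB2 level and its ratio to ITGAL are uncertain.

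ITGA4 (ENSG00000115232; chromosome 2, 181457202 to 181536187, plus strand), the alpha subunit of VLA-4, had 143 and 109.8 FPKM in CfzR, against 87.9 and 91.4 FPKM in WT. Both CfzR libraries were above both WT libraries, with CfzR replicate 1 the higher. The log2 fold change was 0.48 (SE 0.23, interval -0.05 to 1.01, adjusted p = 0.485 by limma). Leaving out CfzR replicate 1 gave 0.29, leaving out CfzR replicate 2 gave 0.67, and it was 0.40 after correction for length and GC share. ITGAL (ENSG00000005844; chromosome 16, 30472658 to 30523185, plus strand), the alpha subunit of LFA-1, had 101 and 86.4 FPKM in CfzR, against 73.2 and 66.3 FPKM in WT, again with CfzR replicate 1 highest and no overlap. Its log2 fold change was 0.42 (SE 0.21, interval -0.07 to 0.91, adjusted p = 0.501 by limma), 0.31 without CfzR replicate 1 and 0.46 after the correction. The longest annotated transcripts of ITGA4 and ITGAL measure 4189 and 5213 bases. Those of the other members measure 5732 bases for CD44, 4781 for ITGB2, 3784 for ITGB1 and 2867 for ITGB7. SELPLG has 2256, CCR10 1942 and CXCR4 1895 bases. The correction treated length and GC share together, so whether length alone plays a part in these differences was not tested.

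SELPLG (ENSG00000110876; chromosome 12, 108622277 to 108633959, minus strand) had 103 and 92.4 FPKM in CfzR, against 151 and 154 FPKM in WT. Both CfzR libraries lay below both WT libraries, and the gap between the groups was wider than the spread within either. The mean was 97.9 ± 7.70 FPKM in CfzR and 152 ± 2.28 FPKM in WT (SD, n = 2 each). The log2 fold change was -0.64 (SE 0.21, interval -1.13 to -0.15), with an unadjusted p = 0.0183 and an adjusted p = 0.329 by limma. It was -0.49 after correction for length and GC share and -0.43 under quantile normalization. CD44 (ENSG00000026508; chromosome 11, 35138870 to 35232402, plus strand) had 57.9 and 49.1 FPKM in CfzR, against 60.3 and 60.4 FPKM in WT. The CfzR libraries were lower without overlap, by a log2 fold change of -0.18 (SE 0.20, interval -0.65 to 0.29, adjusted p = 0.739 by limma). The table has 1 row per gene, so the splice variants of CD44 were not told apart.

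**Figure D2:**
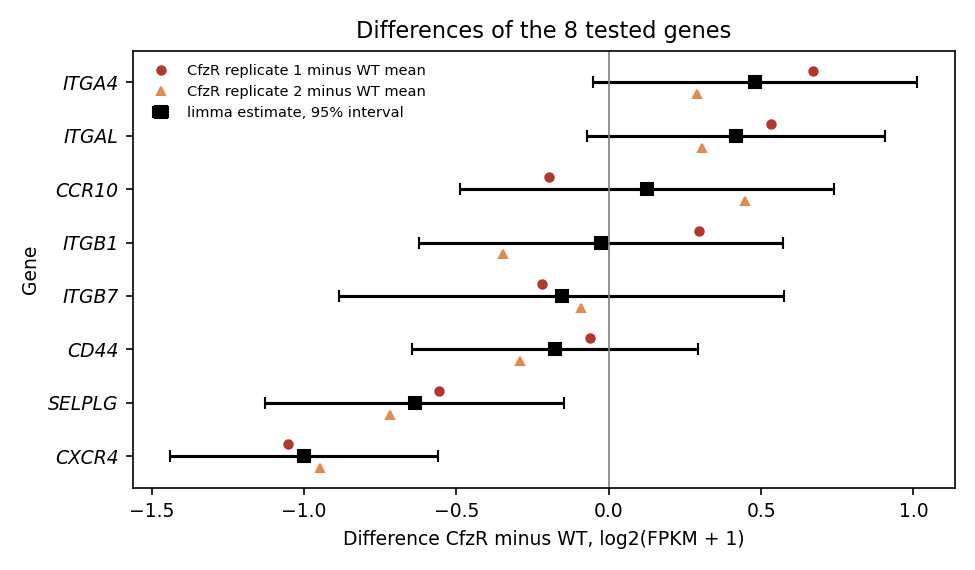
Difference CfzR minus WT on the log2(FPKM + 1) scale for the 8 tested receptors: squares with bars are limma estimates with 95% intervals, circles and triangles are CfzR replicates 1 and 2 minus the WT mean. The intervals of CXCR4 (-1.44 to -0.56) and SELPLG (-1.13 to -0.15) lie below 0 before any adjustment over genes, and the replicates of CCR10 and ITGB1 lie on opposite sides of 0.

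Since integrins act as dimers, the RNA ratio of subunits within a library was also compared. This ratio does not depend on how that library was scaled. A trend with transcript length, as seen between the CfzR replicates, need not cancel in it, and the ratios were not corrected for length. ITGA4 stood at 3.15 and 3.82 times ITGB1 in CfzR, against 2.37 and 2.50 times in WT. The difference of the mean log2 ratio was 0.51. ITGB7 exceeded ITGA4 by 6.98 and 9.98 times in CfzR, against 12.6 and 13.5 times in WT, a difference in the mean log2 ratio of ITGA4 to ITGB7 of 0.64. In both ratios the groups did not overlap, with more ITGA4 RNA relative to the RNA of either beta subunit in CfzR. Protein dimers were not measured. With 2 libraries a group, the exact two-sided permutation test gave p = 0.333 for each, the smallest it can give. ITGB7 stood at 21.99 and 38.1 times ITGB1 in CfzR, on either side of 29.7 and 33.7 times in WT (exact permutation p = 1). ITGAL exceeded ITGB2 by 417 and 154 times in CfzR, against 118 and 113 times in WT; the value of 417 comes with the lowest ITGB2 level, 0.242 FPKM, in CfzR replicate 1. The difference of its mean log2 ratio was 1.13 (exact permutation p = 0.333), and 0.42 without CfzR replicate 1. Without that library the difference for ITGA4 to ITGB7 was 0.38 and for ITGA4 to ITGB1 0.65.

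**Figure D3:**
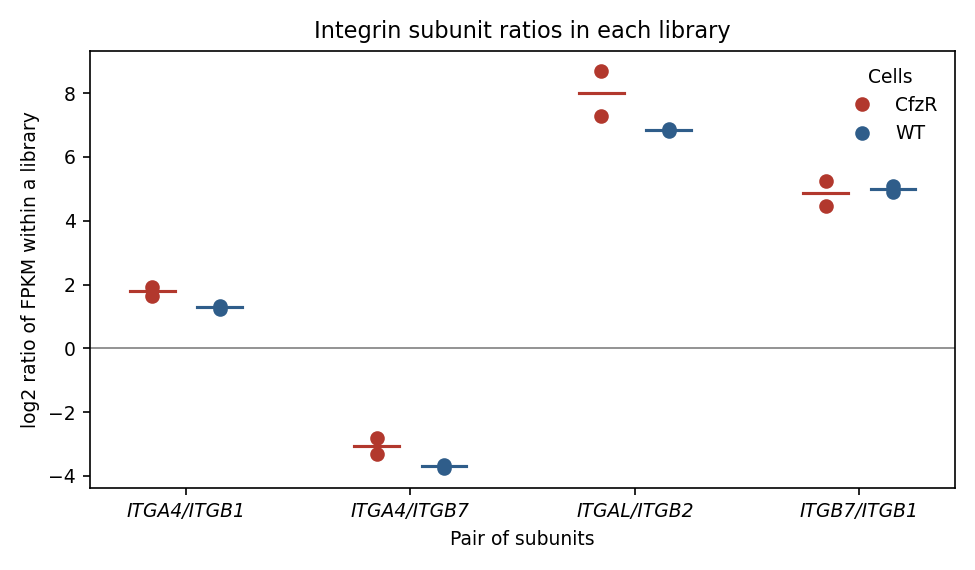
Log2 ratio of FPKM of 2 integrin subunits within each library, with points for libraries of CfzR (left of each pair) and WT (right) and bars for group means. The CfzR points of ITGA4/ITGB1 and ITGA4/ITGB7 lie above the WT points, and those of ITGB7/ITGB1 lie on either side of them.

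Of 20 further integrin subunits listed, 8 had a value and 8 were tested. Together with the members there were 5 beta and 8 alpha subunits with a value. Among the beta subunits, ITGB7 made up 88.3% and 90.3% of their summed FPKM in CfzR, and 91.1% and 91.5% in WT. ITGB5, a partner of ITGAV, followed with 81.4 and 80.7 FPKM in CfzR and 65.5 and 70.9 FPKM in WT (adjusted p = 0.645 by limma). Among the alpha subunits, ITGA4 held 51.5% and 46.8% in CfzR and 44.8% and 47.2% in WT, and ITGAL 36.3% and 36.8% in CfzR and 37.3% and 34.2% in WT. ITGAE, which pairs with ITGB7 to bind E-cadherin, had 16.9 and 23.8 FPKM in CfzR and 20.0 and 20.7 FPKM in WT. ITGA3, a laminin-binding subunit, had 8.54 and 5.996 FPKM in CfzR and 5.64 and 6.38 FPKM in WT. The alpha subunits other than ITGA4, ITGAL and ITGAE thus each stood at 8.54 FPKM or less. ITGAX, the CD11c subunit that pairs with ITGB2, had 0.133 and 0.129 FPKM in CfzR, against 2.36 and 2.10 FPKM in WT. Its log2 fold change was -1.51 (SE 0.25, adjusted p = 0.0926 by limma), and it passed the filter only through the WT libraries. Over the alternatives without a replicate block its adjusted p lay on either side of the threshold, from 0.0132 without WT replicate 2 to 0.253 without CfzR replicate 1. None of these 8 subunits passed over all genes, and their median log2 fold change was 0.23. Of the 8, 1 had an unadjusted p under 0.05, against 11.1% of all genes tested.

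In the list of CXCR4 signalling and desensitisation, 2 of 20 tested genes rose and 0 fell past the threshold. Of all 13411 genes tested, 33 rose and 14 fell past it. Among the 20 genes, 15 were positive, against 6320 of all 13411, and the median change was 0.20. This list, like the other related lists, was chosen with earlier results of these data known, so such counts only describe it. The 2 listed genes that rose past the threshold were RGS1, which shortens signals of Gi-coupled receptors such as CXCR4, and GNAI1, a Gi alpha subunit. Whether CXCR4 signalling itself differed, and whether the genomic position of these 2 genes plays a part, was not tested. RGS1 had 17.2 and 16.7 FPKM in CfzR, against 3.48 and 3.25 FPKM in WT (log2 fold change 2.04, SE 0.19, adjusted p = 0.0125 by limma). GNAI1 had 7.90 and 5.73 FPKM in CfzR, against 0.341 and 0.402 FPKM in WT (log2 fold change 2.50, SE 0.25, adjusted p = 0.0151 by limma). GNAI1 passed the filter only through the CfzR libraries. With no filter its adjusted p was 0.0166, and with the filter at 5 FPKM it was not tested and RGS1 was the 1 call of the list. Both calls were lost without CfzR replicate 1 (adjusted p = 0.112 for RGS1 and 0.159 for GNAI1) and without CfzR replicate 2 (0.0822 for both), where all genes past the threshold numbered 16 and 17. The log2 fold changes in those fits were 2.02 and 2.06 for RGS1, and 2.29 and 2.70 for GNAI1. GNAI2, the more abundant Gi alpha subunit, had 191 and 205 FPKM in CfzR and 233 and 191 FPKM in WT. RAC2, a GTPase of migration, and GRK2, a kinase that desensitises CXCR4, also overlapped between groups, with log2 fold changes of -0.07 and -0.12. RGS16, a relative of RGS1, had 11.8 and 15.6 FPKM in CfzR and 6.98 and 8.64 FPKM in WT (adjusted p = 0.304), and VAV1, a signalling protein of lymphocytes, had 20.0 and 19.3 FPKM in CfzR and 27.7 and 29.2 FPKM in WT (adjusted p = 0.374).

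Of 22 other homing receptors listed, 5 were tested and 0 passed. At an unadjusted p under 0.05, where 11.1% of all genes tested stood, 2 were lower. These were S1PR4 and S1PR1, which are receptors of sphingosine 1-phosphate. The other listed receptor of this lipid with a value, S1PR2, named after its values were seen, had 3.60 and 3.51 FPKM in CfzR and 3.19 and 3.32 FPKM in WT (adjusted p = 0.868 by limma). S1PR4 had 181 and 252 FPKM in CfzR, against 344 and 363 FPKM in WT (log2 fold change -0.72, adjusted p = 0.379 by limma). S1PR1 had 6.01 and 4.67 FPKM in CfzR, against 11.7 and 10.4 FPKM in WT (log2 fold change -0.94, adjusted p = 0.178 by limma). The groups did not overlap for S1PR4 or S1PR1. CCR1, a receptor of CCL3, had 29.4 and 17.4 FPKM in CfzR and 16.7 and 13.0 FPKM in WT (adjusted p = 0.493). The median of the list was 0.08.

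Among 21 tested genes of integrin activation and the adhesion complex, 0 passed, and the median log2 fold change was -0.13. Of these genes 14 were negative, against 7091 of all 13411 genes tested. VCL, the linker vinculin, had 14.2 and 10.4 FPKM in CfzR, against 23.3 and 20.4 FPKM in WT (adjusted p = 0.259 by limma). PARVB, a parvin that joins integrin-linked kinase to actin, had 14.9 and 17.1 FPKM in CfzR, against 24.3 and 42.1 FPKM in WT (adjusted p = 0.283; 0.0415 without WT replicate 1). FERMT1, a kindlin mostly known from epithelia, had 4.75 and 3.92 FPKM in CfzR and 2.40 and 2.19 FPKM in WT (adjusted p = 0.324). The most abundant genes of the list overlapped between groups: ITGB1BP1, which holds ITGB1 inactive, the actin crosslinker FLNA and the exchange factor CYTH1 had log2 fold changes of -0.30, 0.02 and -0.003. The ligands of the receptors gave 0 of 10 past the threshold and a median of -0.23. SRGN, a proteoglycan that binds CD44, had 388 and 385 FPKM in CfzR, against 590.2 and 722 FPKM in WT (adjusted p = 0.369). FN1, the fibronectin bound by VLA-4, had 3.95 and 4.71 FPKM in CfzR, against 1.26 and 1.49 FPKM in WT (log2 fold change 1.16, adjusted p = 0.137). F11R, a junctional ligand of LFA-1, had 7.82 and 6.07 FPKM in CfzR and 3.21 and 3.60 FPKM in WT (adjusted p = 0.236). ICAM2, another ligand of LFA-1, and LAMB1, a laminin chain, were lower without overlap, with log2 fold changes of -0.50 and -0.30.

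In the list of selectin ligand synthesis, which prepares SELPLG for binding, 0 of 13 tested genes passed and the median was 0.13. Of the 13 genes, 10 were positive, against 6320 of all 13411 genes tested. TPST1, which sulphates tyrosines of SELPLG, had 10.1 and 7.73 FPKM in CfzR, against 4.25 and 3.29 FPKM in WT (log2 fold change 1.05, adjusted p = 0.163 by limma). TPST2, its more abundant relative, overlapped between groups (0.19). CMAS, which activates sialic acid, had 46.2 and 42.8 FPKM in CfzR and 30.5 and 32.0 FPKM in WT (adjusted p = 0.403), and GMDS, of GDP-fucose synthesis, had 46.3 and 81.4 FPKM in CfzR and 78.6 and 72.9 FPKM in WT. Of 10 tested genes of hyaluronan and the linkers of CD44, 0 passed, with a median of 0.08. None of the 10 had an unadjusted p under 0.05, against 11.1% of all genes tested. MSN and EZR, which tie CD44 to actin, and ADAM17, a sheddase, had log2 fold changes of 0.14, 0.09 and 0.40.

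Of 15 other adhesion molecules tested, 0 passed, and the median was 0.19. There were 11 positive, against 6320 of all 13411 genes tested. At an unadjusted p under 0.05 there were 3, all higher, against 11.1% of all genes tested. ALCAM, the CD166 antigen, had 9.74 and 7.46 FPKM in CfzR, against 3.44 and 3.86 FPKM in WT (log2 fold change 1.04, adjusted p = 0.150 by limma). ESAM and NECTIN2, of the immunoglobulin superfamily, were higher without overlap, by log2 fold changes of 0.69 and 0.82 (limma adjusted p = 0.310 and 0.424). The abundant members BSG, SDC1 and CD48 had -0.22, 0.29 and 0.02. Of 14 tested transcription factors known to act on receptors of the group, 0 passed and the median was -0.06. KLF2, a regulator of lymphocyte trafficking and of S1PR1, had 559 and 804 FPKM in CfzR, against 1345 and 1199.6 FPKM in WT (log2 fold change -0.92, SE 0.33, adjusted p = 0.369 by limma). MAF, an activator of ITGB7 in myeloma, had 115 and 85.5 FPKM in CfzR and 114 and 103 FPKM in WT (log2 fold change -0.13, adjusted p = 0.843). ETS1 had 24.1 and 16.7 FPKM in CfzR and 11.9 and 14.2 FPKM in WT (adjusted p = 0.428), and RELA, a subunit of NF-kB, overlapped between groups (log2 fold change -0.04).

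**Figure D4:**
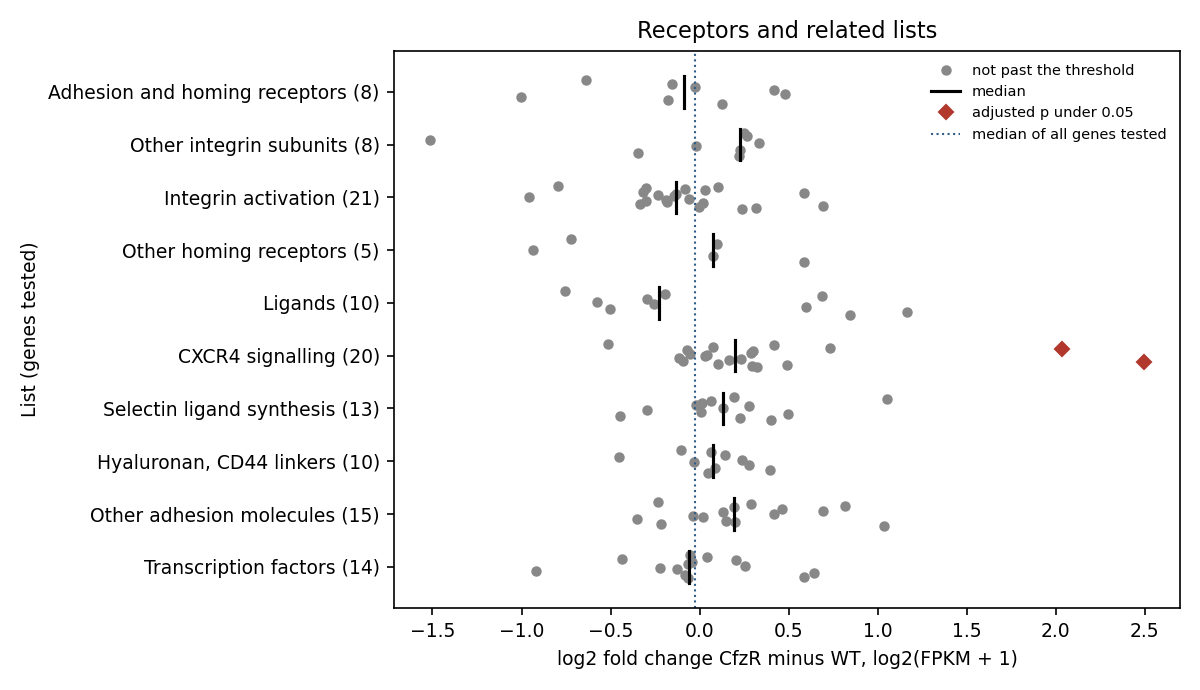
Log2 fold change CfzR minus WT of each tested gene (points) in the receptors and 9 related lists, with the number tested in brackets, list medians as black bars and the median of all genes tested as a dotted line. Only RGS1 and GNAI1, in the list of CXCR4 signalling, passed the threshold (diamonds), and list medians ran from -0.23 to 0.23.

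The genes most like CXCR4 over the 4 libraries were NPIPB6, JUP and NMI, with root mean square differences of 0.0235, 0.0405 and 0.0409 between centred log2(FPKM + 1) profiles. Of 9013 genes averaging 5 FPKM or more, 25 lay within 0.1 of CXCR4. JUP, the junction protein plakoglobin, had 8.23 and 8.32 FPKM in CfzR, against 17.3 and 17.4 FPKM in WT. NMI, an interferon-induced protein, had 4.81 and 5.09 FPKM in CfzR, against 10.5 and 10.02 FPKM in WT. NPIPB6 belongs to a family of near-identical copies, so its value is uncertain. For SELPLG, 80 genes lay within 0.1, the nearest being SNX12 (0.0202), PPRC1 (0.0274) and the pseudogene PGAM1P8 (0.0370). With 4 libraries such likeness is a description of shared values.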

How the data were processed

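Per the labels' protocols, TRIzol was used to extract RNA, and an mRNA library kit was applied. The submitters' processing notes list STAR and Cufflinks. No version, build, annotation or use of strand is given in the sources used here. A single FPKM table was deposited by the authors, with values for 15201 Ensembl gene IDs and 4 libraries, and its lowest row mean was 0.500 FPKM. The unit was read from the tool, the file header and the values. Columns named for the drug were assigned to CfzR, and the control columns to WT, the only other group.

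Symbols were matched by ID for 15027 genes. Gene positions, transcript lengths and GC shares came from GENCODE release 29 (GRCh38), matched by ID, and are not the authors' coordinates. Genes averaging 1 FPKM or more entered a comparison on log2(FPKM + 1) in limma 3.58.1 (R 4.3.3), with a mean-variance trend, two-sided tests and Benjamini-Hochberg adjustment over all 13411 genes tested at a threshold of 0.05. The pseudocount understates changes of low genes. Fold differences are ratios of mean FPKM. The procedure was tested on simulated data with 2 spreads. With each gene's own residual SD it recovered none of the changes of 0.5 and 1 on the log2 scale and made no false call. With limma's moderated SD, added after that outcome and more favourable to the procedure, it recovered none of the changes of 0.5, a minority of those of 1, and made some false calls. The members and the 9 related lists were chosen with earlier results of these data known, so no test over a list was made. All members are named. Of each related list the text names genes past the threshold, the 3 with the highest mean, and up to 4 with the smallest unadjusted p under 0.05. The 3 genes most like CXCR4, and most like the other member with the largest change, are also named. Motif letters were searched after the values were seen, and those for NRF1 replaced a longer form with an open base after its matches were known; the CXCR4 window matched both forms. Alternatives were other pseudocounts, filters and scalings (trimmed means of M-values, TMM; quantile), no trend, a replicate block, each library left out, and a correction for length and GC share by splines with 4 degrees of freedom.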

Additional observations from a re-analysis of the deposited data

How the results depend on the processing

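Sequencing depth is unknown, so no counting error can be given for the low values of ITGB2 and ITGAX. Of the 8 tested members, 0 passed under the other 12 settings, and 1, CXCR4, passed with the replicate number as a block (adjusted p = 1.52e-04). With 1 residual degree of freedom for each gene, that fit moved the count of all genes past the threshold to 1242, against 47. The labels do not say what a number shares, and deviations of same-numbered libraries correlated at 0.252 across genes. With the filter at a mean of 5 FPKM 27 genes passed. With each library left out in turn the count ran from 16 to 260, in fits where a lone library is assumed to vary like the other group. The adjusted p of CXCR4 without the block ran from 0.0845 to 0.385 and that of SELPLG from 0.131 to 0.9997.

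Members with a positive difference numbered 3, and 5 under quantile normalization, where ITGB1 (0.0945) and ITGB7 (0.190) turned. In the same setting ITGAE (0.0308), CYTH1 (0.155), RAC2 (0.209), GNAI2 (0.185), GRK2 (0.129), BSG (0.0713), MAF (0.0600) and RELA (0.0947) turned. With the length and GC correction ITGAE (0.0374), CYTH1 (0.0474), RAC2 (0.118) and RELA (0.0538) turned, and CYTH1 under TMM (0.0106). The cause was not tested. None of the genes that turned was past the threshold. With each library left out in turn, log2 fold changes on both sides of 0 were found for CCR10 (-0.195 to 0.448), ITGB1 (-0.348 to 0.298), ITGAE (-0.251 to 0.214), ITGA3 (-8.03e-04 to 0.447), CYTH1 (-0.164 to 0.158), FLNA (-0.297 to 0.339), RAC2 (-0.289 to 0.143), GNAI2 (-0.233 to 0.0472), GMDS (-0.698 to 0.104), MSN (-0.140 to 0.424), ADAM17 (-0.00561 to 0.796), CD48 (-0.133 to 0.175), MAF (-0.337 to 0.0856) and RELA (-0.216 to 0.137), and for the difference in the log2 ratio of ITGB7 to ITGB1 (-0.525 to 0.268). CXCR4, SELPLG, CD44, ITGA4 and ITGAL kept their direction under all 13 settings.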
